A study of Mus musculus with 6 samples.

Results

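The joining (J) segments of the T cell receptor alpha chain were examined in sorted splenic follicular helper T (Tfh) cells of mice. The members are the gene rows with the biotype TR_J_gene and a symbol starting with Traj. There were 51 of them among the 47729 gene rows of the deposited table. All 51 were found in the GENCODE M21 annotation of GRCm38, on the plus strand of chromosome 14. A further 9 Traj rows carry the biotype TR_J_pseudogene. They are not members and are given only beside the results.

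RNA had been sequenced from cells sorted by their surface CD4, TCR beta, high PD1 and high CXCR5, after mice received the antigen NP-OVA by intraperitoneal injection. The 3 double knockout samples are labelled dko (Cbl-/- Cbl-b-/-) and the 3 control samples wt ctrl. Spleen, cell type and antigen are the same in both groups. The sources used here do not give the strain, age, sex, deletion strategy, time after injection or number of mice per sample, and p-values therefore measure the spread between these samples, which may be technical. The series addresses how signalling from the costimulatory receptor ICOS through the CBL ubiquitin ligases bears on Tfh cell development.

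An alpha chain gene is assembled in the thymus by joining 1 variable (V) segment to 1 J segment, and RNA splicing then attaches the J end to the constant exons of Trac. The J segments lie in a long array between the delta chain genes upstream and Trac downstream. Joining tends to begin at the upstream end of the array and can move on to downstream J segments while upstream ones are deleted. Some T cells use a fixed alpha chain. In mice, invariant NKT cells join Trav11 to Traj18, and MAIT cells join Trav1 to Traj33.

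Germline sequences of 7 segments are shown because the results turn on them. Traj31 held the largest share of the reads, Traj58, Traj56, Traj46 and Traj59 lay in the upstream part of the array where counts were higher in the double knockout, and Traj18 and Traj33 belong to the invariant chains. Sequences are GENCODE M21 transcripts (GRCm38, plus strand, 5′ to 3′). Capitals mark matches to a motif made of TTNGG, any 4 bases and GGN, searched on the printed strand only, which covers the codons of the conserved Phe-Gly-X-Gly turn of a J segment. Overlapping matches are capitalised together.
Traj59 (chr14:54156133-54156196): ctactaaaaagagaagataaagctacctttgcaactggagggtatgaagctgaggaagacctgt
Traj58 (chr14:54157280-54157342): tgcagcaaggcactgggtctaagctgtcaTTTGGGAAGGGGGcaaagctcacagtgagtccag
Traj56 (chr14:54159263-54159325): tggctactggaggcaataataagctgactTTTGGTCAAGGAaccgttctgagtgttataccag
Traj46 (chr14:54172336-54172398): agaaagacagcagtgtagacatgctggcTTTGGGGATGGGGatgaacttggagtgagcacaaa
Traj33 (chr14:54185358-54185414): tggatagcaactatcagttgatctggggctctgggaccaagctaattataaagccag
Traj31 (chr14:54187895-54187951): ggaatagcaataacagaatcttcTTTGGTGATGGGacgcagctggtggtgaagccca
Traj18 (chr14:54200777-54200842): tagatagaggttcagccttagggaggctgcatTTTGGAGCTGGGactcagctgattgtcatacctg
The motif was present in 44 of 51 members (86.3%), in 2 of the 9 pseudogene J segments (22.2%) and in 13 of 19 J segments of the other receptor loci (68.4%). Traj59 and Traj33 hold no match. No member shared a stretch of 25 bases with the annotated transcript of any other gene, counting both strands of the members.

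Reads assigned to genes came to between 23392254 and 38368885 per library. Values below are normalised read counts, which are reads divided by 1 size factor per library. Cbl, 1 of the 2 targeted ubiquitin ligase genes, stood at 3262, 3856 and 2221 in double knockout replicates 1 to 3 and at 12417, 12945 and 8614.5 in control replicates 1 to 3, a log2 fold change of -1.88 ± 0.23 (limma adjusted p = 0.00888). Cblb, the other, stood at 7459, 7881 and 8054 against 8943, 10037 and 6955 with overlapping groups (-0.13 ± 0.14, adjusted p = 0.703). The deleted part of Cblb is not known here, and its total does not check the label. The 5 Tfh markers Cxcr5, Pdcd1, Bcl6, Icos and Il21 were all abundant, with a summed normalised count of 88066 to 128168 in the double knockout against 103465 to 116299 in the control. Xist, transcribed from the inactive X, stood at 12769 to 18100.5 in the double knockout against 12.9 to 970 in the control. The Y-linked Ddx3y stood at 0 to 7.16 against 2812 to 3721. Sex and genotype therefore cannot be told apart in any difference below.

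Traj31 dominated the J segment reads of every library and was lower in the double knockout. Its normalised count was 1509, 1518 and 1478 in double knockout replicates 1 to 3. It was 2894, 2669 and 3455 in control replicates 1 to 3. All double knockout libraries were below all controls and lay within a narrow band. The mean fell from 3006 ± 405 to 1502 ± 20.9 (SD, n = 3 per group), which is -0.99 ± 0.12 (SE) on the log2 scale (limma adjusted p = 0.00871). Traj31 passed the threshold in each of the 17 alternatives, including the authors' deposited table and the 6 fits that left out 1 library each (adjusted p from 2.31e-10 to 0.0445). In bulk RNA, fewer cells using a segment and less RNA per cell cannot be told apart.

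Per annotated base, Traj31 stood apart from all other members. Its mean over the 6 libraries was 39.5 normalised counts per base, 25 times that of Traj27, the next in order at 1.58. Traj37 followed at 1.15, Traj49 at 1.09 and Traj58 at 0.917. The median of the other 50 members was 0.381 and the lowest, Traj46, was at 0.108. The values of Traj27, Traj37, Traj49 and Traj58 over the 6 libraries overlapped, so the order among these 4 is not firm. None of Traj27, Traj37 and Traj49 passed the test. Traj27 stood at 96.2 ± 15.4 against 90.5 ± 11.4 normalised counts, Traj37 at 65.3 ± 9.78 against 72.2 ± 17.7 and Traj49 at 73.3 ± 21.3 against 61.8 ± 21.3 normalised counts (SD, n = 3 per group). The 95% confidence interval of the log2 fold change was -0.47 to 0.64 for Traj27, -0.79 to 0.55 for Traj37 and -0.57 to 1.06 for Traj49. The sign of Traj27 turned with quantile scaling (-0.01), with library weights and when single libraries were left out.

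**Figure D1:**
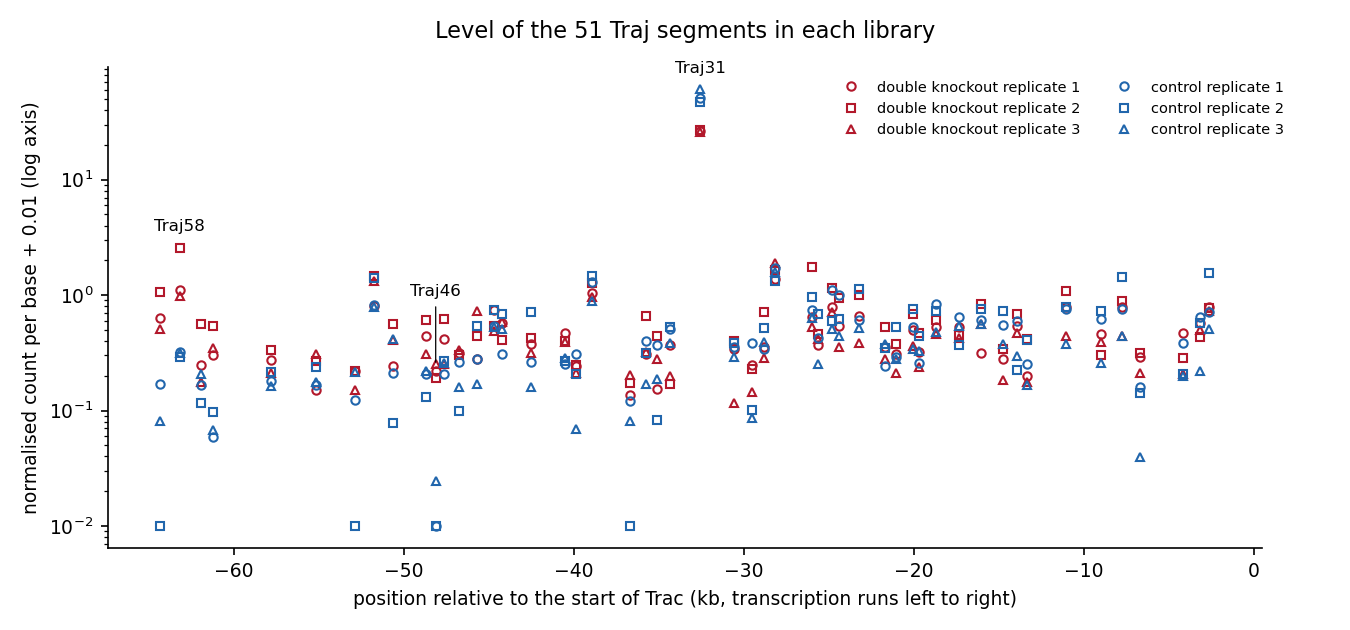
Normalised count per annotated base (log axis, 0.01 added) of the 51 Traj segments in each of the 6 libraries, placed by distance in kb upstream of the start of Trac. Traj31 lies far above every other segment in all 6 libraries, with the 3 control libraries above the 3 double knockout libraries, and the double knockout points for Traj58 near the left end lie above the control points.

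The member whose values ran most like those of Trac was Traj31. Trac encodes the constant region of the alpha chain. Trac had normalised counts of 149423, 171176 and 149100 in the double knockout against 258497, 232038 and 267699 in the control. The groups did not overlap, but the log2 fold change of -0.69 ± 0.16 did not pass the threshold (limma adjusted p = 0.0667). Over the 6 libraries the log2 values of Traj31 and Trac had a Pearson correlation of 0.98, the highest among the 50 members tested, followed by Traj13 at 0.77 and Traj32 at 0.69. These 6 points fall into the 2 genotype groups and share library and depth, so the correlations are descriptions. Per 1000 Trac reads there were 10.1, 8.87 and 9.91 Traj31 reads in the double knockout against 11.2, 11.5 and 12.9 in the control. Relative to Trac, Traj31 was still lower in each double knockout library than in each control. The beta chain constant genes differed in the same direction without passing. Trbc1 had a log2 fold change of -0.32 ± 0.11 (limma adjusted p = 0.167) and Trbc2 of -0.50 ± 0.13 (adjusted p = 0.0824).

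Of the 51 members, 50 passed the filter on low values (at least 10 normalised counts in at least 3 of the 6 libraries), and 3 of those (Traj56, Traj46 and Traj5) passed only through the double knockout libraries, where they are high. Traj35 was not tested. In the limma fit over 13602 genes, 3 members rose (Traj58, Traj56 and Traj46) and 1 fell (Traj31), while 46 did not pass. Traj56 and Traj46, 2 of the 3 that rose, had to be higher to be tested at all, which leaves Traj58. Across all genes tested, 2.93% were called, 1.85% as higher and 1.07% as lower in the double knockout. With edgeR on the recovered reads 3 members rose and 1 fell, where 2.98% of all genes were called (1.9% higher, 1.08% lower). With DESeq2 the counts were 3 and 1, where 8.24% were called (4.97% higher, 3.27% lower), with Traj59 among the 3 and no adjusted p for Traj46. The authors' deposited table has 4 and 1, where 6.61% were called (4.1% higher, 2.52% lower). The median log2 fold change over the 50 members tested was 0.23 beside -0.00 over all genes. The 46 members that did not pass had adjusted p from 0.0757 to 0.991.

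The member that rose and passed the filter through both groups was Traj58. It is the second member from the upstream end and had normalised counts of 68.7, 160.6 and 60.8 in double knockout replicates 1 to 3. In control replicates 1 to 3 it had 19.5, 17.8 and 19.3. All double knockout libraries were above all controls, and replicate 2 was the highest. The mean rose from 18.9 ± 0.911 to 96.7 ± 55.5 (SD, n = 3 per group), and the log2 fold change was 2.16 ± 0.41 (SE; limma adjusted p = 0.0356). The call for Traj58 held without double knockout replicate 2 or 3 and ended without double knockout replicate 1 or any 1 control (largest adjusted p = 0.119), and in the fit that blocked on replicate number (adjusted p = 0.0660).

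Traj56, also near the upstream end, had normalised counts of 18.4, 33.6 and 21.5 in the double knockout against 3.08, 5.48 and 3.67 in the control. All 3 double knockout libraries were above all controls, with a log2 fold change of 2.31 ± 0.48 (limma adjusted p = 0.0454). This call was lost whenever 1 library was left out (adjusted p from 0.0774 to 0.147), and it rests on 83 reads in the double knockout against 11 in the control. It was also lost with a pseudocount of 0.5, with no filter, with quantile scaling and with the replicate block (adjusted p = 0.0765). Traj46 was close to the limit of detection in the control. It had normalised counts of 13.3, 11.5 and 15.2 in the double knockout against 0, 0 and 0.918 in the control, that is 44 reads against 1. The ratio of reads, corrected for size factors, was 37.1 with an exact conditional 95% interval of 6.32 to 1498 for counting error only. Its limma adjusted p was 0.0277, and among the 6 fits without 1 library the call held only in the one without control replicate 3 (adjusted p from 0.0596 to 0.147 in the others). With the replicate block its adjusted p was 0.0634.

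Traj59, the member nearest the upstream end, did not pass. It had normalised counts of 40.0, 68.0 and 32.2 in the double knockout against 10.3, 0 and 4.59 in the control. The groups did not overlap, and the spread within the control was wide on the log scale. Control replicate 1 was the only control to reach the 10 normalised counts of the filter. The log2 fold change was 3.51 ± 0.86 (limma adjusted p = 0.0757). A pseudocount of 10 and quantile scaling brought it past the threshold, as did DESeq2 with an adjusted p of 0.00181. The authors' deposited table lists it with an adjusted p of 0.00110. With a pseudocount of 0.5 the adjusted p was 0.104, with the replicate block 0.119, and with single libraries left out 0.0812 to 0.224. Without control replicate 2 the log2 fold change was 2.52. Of the other members at this end, Traj57 had a log2 fold change of 0.85 ± 0.55 with overlapping groups.

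**Figure D2:**
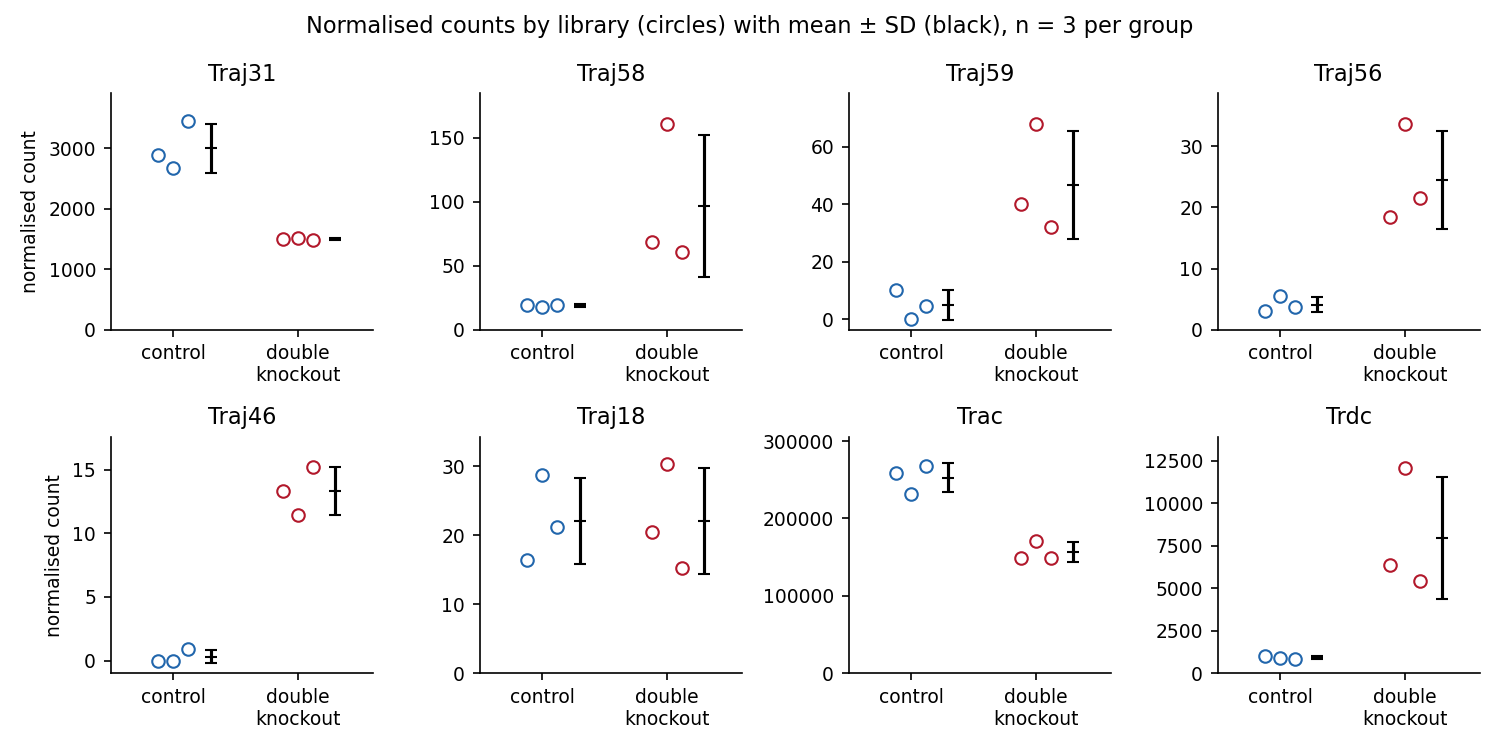
Normalised counts of 6 Traj segments and of the constant genes Trac and Trdc in each library (circles; blue for control, red for double knockout), with the mean ± SD of the 3 libraries per group in black. Traj31 and Trac are lower in all 3 double knockout libraries, Traj58, Traj59, Traj56, Traj46 and Trdc are higher in all 3, and Traj18 overlaps between the groups.

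The members were put into 3 groups of 17 in genome order, a division that uses no measured value. In the upstream group (Traj59 to Traj40), 16 of 17 tested members had a positive log2 fold change, 3 rose and none fell, with a median of 0.85. In the middle group (Traj39 to Traj22), 9 of 16 were positive, Traj31 fell and none rose, with a median of 0.06. In the downstream group (Traj21 to Traj2), 6 of 17 were positive and none passed, with a median of -0.07 and values from -1.02 to 1.403. Over all genes tested, 6782 of 13602 were positive. Traj56 and Traj46 in the upstream group and Traj5 in the downstream group passed the filter only through the double knockout libraries, so 2 of the 3 upstream calls and these counts and medians are descriptions and carry no support for a pattern.

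Among the 50 tested members, the distance from Trac and the log2 fold change had a Spearman correlation of 0.58, and 0.48 over the 46 members downstream of Traj56. The segments share libraries and have low counts. Traj56, Traj46 and Traj5 entered only through the double knockout libraries, and the 46 members still include Traj46 and Traj5. Both correlations are therefore descriptions and carry no support for a pattern. Members whose groups did not overlap numbered 8 higher and 3 lower in the double knockout among the 50 tested, beside 12.3% and 11.3% of all genes tested. Traj56, Traj46 and Traj5 are among the 8 higher and passed the filter only through the double knockout libraries. These counts are therefore descriptions and carry no support for a pattern. Of the 8, 6 were in the upstream group. Besides the segments above they were Traj47 (25.3 ± 8.73 against 10.02 ± 2.77 normalised counts) and Traj44 (18.7 ± 0.863 against 10.02 ± 5.0) upstream, Traj39 (25.8 ± 2.51 against 16.4 ± 1.03) in the middle group and Traj5 (16.3 ± 3.31 against 6.43 ± 4.01) downstream. None of these 4 passed the test.

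The lower members besides Traj31 were Traj13 and Traj32. Traj13 had normalised counts of 15.4, 18.8 and 9.84 in the double knockout against 30.8, 41.1 and 21.1 in the control. Traj32 had 23.6, 10.7 and 12.5 against 32.8, 34.3 and 24.8. In both, the groups stood apart by little, and neither passed (log2 fold changes of -1.02 ± 0.43 and -0.997 ± 0.422, limma adjusted p = 0.279 and 0.283). Traj30 had the next lowest estimate, -0.43 ± 0.53 (adjusted p = 0.767), whose sign turned without double knockout replicate 3 (0.11). At the downstream end Traj2, next to the pseudogene Traj1, had 51.2, 50.8 and 47.4 against 46.1, 101.4 and 33.1, with control replicate 2 the highest and overlapping groups (-0.11 ± 0.42, adjusted p = 0.937). Its sign turned without that library (0.34).

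**Figure D3:**
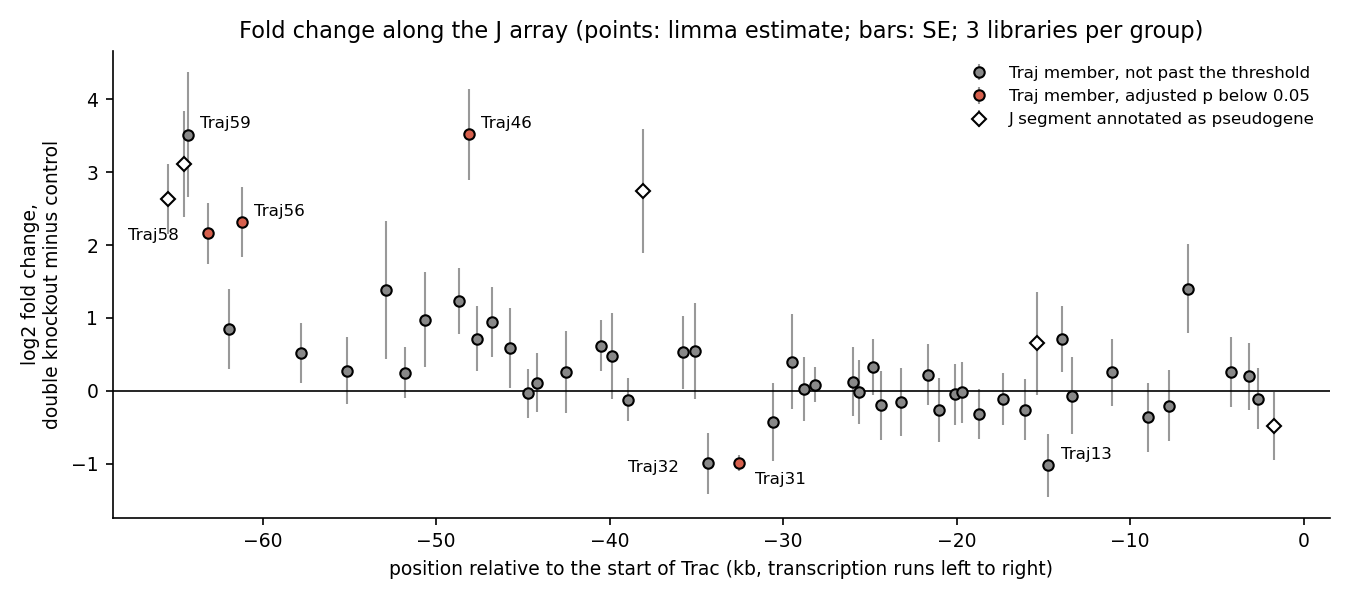
Log2 fold change (double knockout minus control, limma estimate with its SE) of each tested Traj segment by distance in kb upstream of Trac. Members past the threshold are red, and J segments annotated as pseudogenes are open diamonds. The highest points are Traj46 (3.52) and Traj59 (3.51), Traj31 lies at -0.99, and the points at the right end, near Trac, lie on both sides of 0.

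The delta chain genes just upstream of the array were higher in the same libraries. Trdc, the delta chain constant gene (chr14:54142851-54148868), had normalised counts of 6352, 12060 and 5425 in the double knockout against 999, 902 and 815 in the control. It was higher by a log2 fold change of 3.05 ± 0.27 (limma adjusted p = 0.00303) and was called whichever library was left out. Trdv5, a delta V segment on the minus strand that overlaps the end of Trdc, rose by 2.81 ± 0.37 (adjusted p = 0.0126), and its reads cannot be told from those of Trdc without a known strand setting. The same holds for Gm43434, an antisense gene that overlaps Trdc and did not pass (3.25 ± 0.73, adjusted p = 0.0585). Its reads also cannot be told from those of Trdj2, which it spans. The delta J segments Trdj1 (3.35 ± 0.52, adjusted p = 0.0192) and Trdj2 (4.42 ± 0.68, adjusted p = 0.0191) rose as well. Trdj1, Trdj2 and Gm43434 passed the filter only through the double knockout libraries, where they are high, so their tests are descriptions. Each of Trdv5, Trdj1 and Trdj2 lost its call in at least 1 fit made without 1 library (largest adjusted p = 0.0536, 0.108 and 0.0865). Trdc, Trdv5, Trdj1, Trdj2, Traj59, Traj58 and Traj56 were all highest in double knockout replicate 2. Among the double knockout libraries, Traj46 was lowest in replicate 2 (13.3, 11.5 and 15.2 in replicates 1 to 3). The 50 members other than Traj31 summed to 1404, 1943 and 1276 normalised counts in these libraries, and the 16 middle ones to 479, 695 and 438. A high value in replicate 2 was therefore not particular to the upstream end, and a link between these genes was not tested. On the other side of Trac, the neighbouring gene Dad1 overlapped between groups (-0.22 ± 0.15, adjusted p = 0.508).

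The marker list for gamma-delta T cells (Trdc, Tcrg-C1, Tcrg-C2, Tcrg-C4 and Sox13) had a summed count of 5519 to 12380 in the double knockout against 875 to 1056 in the control. Trdc made up nearly all of it and was the only 1 of the 5 that passed (Sox13 was too low to be tested). Tcrg-C2, a gamma chain constant gene, stood at 29.7, 160.6 and 42.1 against 15.4, 15.1 and 30.3 (1.57, adjusted p = 0.260). No marker of this list was at 0 in every library. Cells had been sorted on surface CD4 and TCR beta, and the sources used here do not say how many gamma-delta T cells remained. The part of such cells in the differences along the array was not tested. Among the 7 markers of alpha-beta T cells none passed. Cd8a was at 0 to 3.58 in every library, while Cd8b1 fell from 420.5, 498.9 and 509.7 to 113.8, 188.5 and 109.2 (-1.83, adjusted p = 0.0123). The B cell markers summed to 757 to 1077 against 764 to 1457, mostly Cd22, and myeloid markers to 54.6 to 102 against 97.3 to 193.

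Of the 9 J segments annotated as pseudogenes, 5 were tested and 1 passed. Traj61, the first of the array, had normalised counts of 52.3, 64.7 and 38.5 against 7.18, 4.11 and 12.9. It rose by 2.63 ± 0.48 (limma adjusted p = 0.0307), a call that held in 1 of the 6 fits made without 1 library (largest adjusted p = 0.140). Traj60 had 20.5, 27.9 and 17 against 5.13, 0 and 1.84 and did not pass (3.11 ± 0.73, adjusted p = 0.0667). Traj36, in the middle of the array, had 23.6, 26.2 and 10.7 against 8.20, 0 and 1.84 (2.74 ± 0.85, adjusted p = 0.143). Traj1, at the downstream end, had 18.4, 22.9 and 18.8 against 17.4, 53.5 and 23.9 (-0.48 ± 0.47, adjusted p = 0.681). Traj14, also towards the downstream end, had 30.7, 45.9 and 21.5 against 28.7, 43.9 and 5.51 with overlapping groups (0.65 ± 0.71, adjusted p = 0.719). Traj60 and Traj36 passed the filter only through the double knockout. For Traj61, control replicate 3 was the only control at 10 normalised counts or more, so its test also leaned on the double knockout libraries.

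As a whole, the 51 members took 93.1, 110.1 and 85.4 reads per 1000000 gene-assigned reads in the double knockout against 134.1, 130.9 and 138.5 in the control, a mean of 96.2 ± 12.6 against 134.5 ± 3.82 (SD, n = 3). The groups did not overlap. With Traj31 left out the direction turned, to 48.8 ± 11.6 against 40.7 ± 8.49 per 1000000 reads with overlapping groups. Per 1000 Trac reads, the other 50 members had 9.40, 11.3 and 8.56 reads in the double knockout against 5.32, 6.59 and 3.76 in the control. On that scale the groups did not overlap, but Trac itself was lower in each double knockout library than in each control.

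Shares of the Traj reads do not depend on the size factors. Traj31 took 51.8% (exact 95% binomial interval 49.9 to 53.6), 43.9% (42.4 to 45.4) and 53.7% (51.9 to 55.4) of them in double knockout replicates 1 to 3. It took 67.8% (66.3 to 69.2), 63.6% (61.9 to 65.3) and 77.4% (76.2 to 78.6) in control replicates 1 to 3. The intervals cover counting error only. The groups did not overlap, and the mean share fell from 69.6 ± 7.11% to 49.8 ± 5.20% (SD, n = 3; exact two-sided permutation p = 0.1, the smallest that 3 against 3 libraries allow). The intervals of the controls did not overlap one another, and that of double knockout replicate 2 lay below those of replicates 1 and 3. The intervals of double knockout replicates 1 and 3 overlapped. Control replicate 3 was the highest and double knockout replicate 2 the lowest.

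Traj58 took 2.36%, 4.64% and 2.21% of Traj reads in the double knockout against 0.456%, 0.425% and 0.432% in the control (exact two-sided permutation p = 0.1, n = 3 per group). Because shares sum to 100, a lower share of Traj31 raises the rest. Of the 51 shares, 19 were higher without overlap and 1, Traj31, was lower. Among the shares of the other 50 members taken alone, 8 were higher without overlap, 6 of them in the upstream group. On that scale 6 were lower without overlap (Traj37, Traj32, Traj30, Traj17, Traj15 and Traj13), all in the middle and downstream groups. In normalised counts, 12.3% of all genes tested were higher without overlap and 11.3% lower, so these counts of shares are descriptions and carry no support for a pattern.

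By position, the upstream group held 17.2 ± 2.25% of Traj reads in the double knockout against 6.62 ± 1.17% in the control. The middle group held 67.3 ± 2.95% against 81.5 ± 4.89%, and the downstream group 15.5 ± 1.63% against 11.8 ± 3.90%. Only the downstream group overlapped between genotypes, and its difference of 3.69 percentage points was 1.61 without control replicate 3 and 5.47 without control replicate 2. With Traj31 left out, the upstream share was 31.6%, 35.0% and 36.2% in the double knockout against 18.5%, 21.9% and 26.3%. On that scale the downstream share was lower in the double knockout, at 30.98 ± 2.88% against 38.3 ± 4.15%, with overlapping groups. In normalised counts the 17 upstream members summed to 529 ± 132 against 284 ± 43.6, the 16 middle members other than Traj31 to 537 ± 138 against 513 ± 101 and the downstream members to 475 ± 95.8 against 507 ± 154. The upstream sums did not overlap between genotypes, and the other 2 did.

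**Figure D4:**
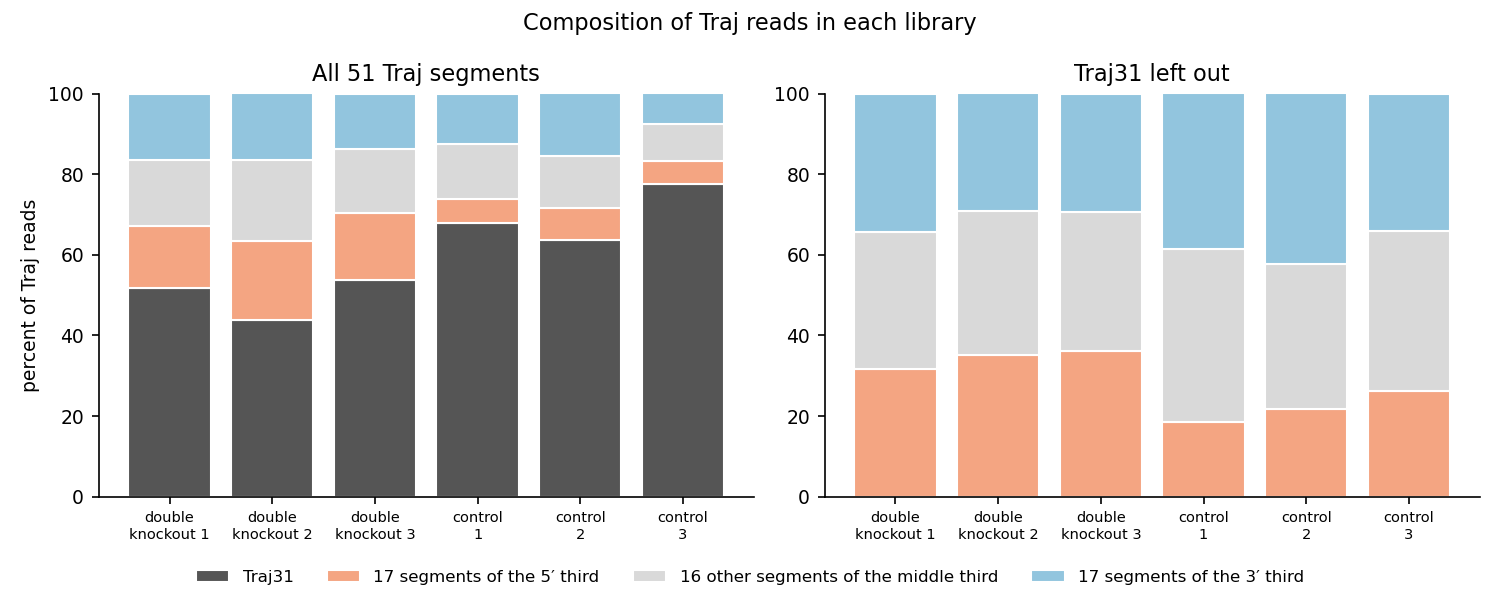
Percent of Traj reads in each library taken by Traj31 and by the upstream (5′), middle and downstream (3′) groups of segments, with all 51 segments (left) and with Traj31 left out (right). Traj31 takes 43.9% to 53.7% of reads in the double knockout against 63.6% to 77.4% in the control, and the upstream group is larger in every double knockout library in both panels.

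Reads were spread more evenly over the segments in the double knockout. The effective number of segments, which is the number of equally used segments that would give the same Shannon entropy, was 12.3, 15.8 and 11.1 in the double knockout against 6.13, 7.06 and 3.90 in the control. The groups did not overlap. Without Traj31 it was 41.4 ± 1.59 against 38.0 ± 2.24, a difference of 3.46 in place of 7.38, and the groups did not overlap. This number can rise with the number of reads. Without Traj31 there were 1370, 2371 and 1426 reads in the double knockout against 1342, 1115 and 1096 in the control. The part of read number in this difference was not tested. All 51 members had reads in each double knockout library, and 50, 47 and 51 had reads in control replicates 1 to 3. The members listed at 0 in at least 1 control library were Traj59, Traj50, Traj46 and Traj35. All 4 were at 0 in control replicate 2, the shallowest library, and Traj46 was at 0 in control replicate 1 as well.

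The J segments of the invariant alpha chains did not pass the test, with wide intervals. Traj18 had normalised counts of 20.5, 30.3 and 15.2 in the double knockout against 16.4, 28.8 and 21.1 in the control. The groups overlapped throughout, and the log2 fold change was -0.02 with a 95% confidence interval of -0.99 to 0.94 (limma adjusted p = 0.988). The sign of this estimate turned in 6 of 16 alternatives. Its partner Trav11 had 1 read in double knockout replicate 3 and none in the other libraries, and Trav11d had none. How reads matching several places were counted is not given, so these values do not show that the invariant chain was absent. Traj33 had 8.20, 24.6 and 15.2 against 20.5, 4.11 and 10.1 (0.55, interval -0.96 to 2.06, adjusted p = 0.753; -0.11 with library weights). Its partner Trav1 stood at 0, 4.92 and 1.79 against 39.0, 43.9 and 43.2 and fell (-4.08 ± 0.68, adjusted p = 0.0236), a call that held in 2 of the 6 fits made without 1 library (largest adjusted p = 0.0938). Trav1 passed the filter only through the control libraries, where it is high, so this fall is a description. The 7 listed markers of these cells summed to 4521.5 to 6898 in the double knockout against 9526 to 10061 in the control, a sum made up mostly of Klrb1c and Cd160. Those 2 fell, none rose and Klra1 was at 0 in every library. Other markers had positive estimates without passing, with Tbx21 at 332, 233 and 157 against 122, 112 and 140 (0.88, adjusted p = 0.160), Il18r1 at 1.23 and Slamf1 at 0.09 on the log2 scale. Zbtb16, which encodes the transcription factor PLZF of these cells, stood at 207, 79.5 and 51 against 22.6, 28.8 and 5.51 without passing (adjusted p = 0.103). Counts do not say which V was joined to which J.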

How the data were processed

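Each library has a column of normalised signal in the deposited table, which the headers and values show to be gene read counts that the authors scaled by a size factor. STAR 2.5.1b, featureCounts 1.4.6, DESeq2 1.12.3 and the build GRCm38 appear in the submitters' processing notes, without roles. The sources used here do not give the strand setting or how reads spanning V, J and C segments or matching several places were counted. Reads counted to a J row may be the part of receptor transcripts that the counting assigned to J alone. The same deposited table holds the authors' log2 fold changes, test scores and p-values, used only as an alternative. Whole reads were recovered by dividing by the smallest value above 0 in each column (100% of values within 0.001 of a whole read).

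Genes with at least 10 normalised counts in at least 3 of 6 libraries (13602) were tested with limma-trend 3.58.1 (R 4.3.3) on log2(value + 1), two-sided, genotype as the only term, Benjamini-Hochberg adjustment over all genes kept and a threshold of 0.05. Fold changes are on the log2(value + 1) scale, where estimates of low genes depend on the pseudocount and on zeros and may be under or over those of the count models. edgeR 4.0.16 gave 405 genes on the recovered reads and limma 398. The fits were tested on simulated data. Members and lists were chosen with earlier results of these data known. Genes named are the members called, Traj18, Traj33, the 5 highest per base, the 4 largest rises and falls, the ends of the array, the 3 most like Trac, and Trac, Trav11, Trav11d, Trav1, Trbc1, Trbc2, Cbl and Cblb. Other names were added after their values were seen. Alternatives were DESeq2 1.42.0, the authors' comparison, pseudocounts of 0.5 and 10, other filters, TMM and quantile scaling, library weights, a replicate block, and each library left out with the genes tested held fixed. No pair of libraries in a group agreed within sampling noise. Python 3.11.15, scipy 1.17.1 and matplotlib 3.10.9 were used for the rest.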

Additional observations from a re-analysis of the deposited data

How the results depend on the processing

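Traj31 was the 1 member called lower under every alternative, with log2 fold changes from -1.07 to -0.89. The number of members called higher was 3, and between 2 and 4 under most alternatives, but 1 with a filter at 50, 0 with the replicate number as a block, and 0 to 1 with single libraries left out. Over all genes the calls were 398, and 265 with the block, 1368 with library weights, 1098 with DESeq2, 993 in the authors' deposited table and 73 to 540 with single libraries left out. Deviations of same-numbered libraries correlated at 0.07, 0.05 and 0.09, so numbers were not taken as pairs, although each library correlated best with its own number. With Traj31 left out, the difference in Traj reads per 1000000 library reads turned from -38.3 to 8.04 and that of the downstream share from 3.69 to -7.31 percentage points. The effective number differed by 3.46 in place of 7.38, and the middle share by -4.75 in place of -14.3. Estimates near 0 changed sign. Traj18 had 0.00764 with edgeR, 0.00465 with DESeq2, 0.00354 in the authors' deposited table, 0.0821 with library weights and -0.27 to 0.20 with single libraries left out. Traj27 had -0.00585 with quantile scaling, -0.0729 with library weights and -0.0300 to 0.20 with libraries left out. Traj33 had -0.11 with library weights. With libraries left out, Traj37 ranged from -0.33 to 0.0214, Traj30 from -0.75 to 0.11 and Traj2 from -0.45 to 0.34. The cause of these changes was not tested. A Traj31 share with Traj31 left out, and tests of low members with a filter at 50, gave no value. Low read numbers limit all members but Traj31.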

Other observations

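The J segments of the beta chain were read in the same way. All 13 Trbj segments were tested and none passed with limma (0 at an unadjusted p under 0.05, adjusted p from 0.307 to 0.931), with a median log2 fold change of 0.22. The most used Trbj segment took between 13.8% and 18.7% of Trbj reads in the 6 libraries. Summed Trbj counts were 1881, 2034 and 1774 in the double knockout and 1845, 1434 and 1984 in the control, with overlapping groups. Per 1000 reads of Trbc1 and Trbc2 they were 65.4, 75.1 and 69.0 against 51.7, 41.8 and 45.5, higher in each double knockout library. Trbc1 and Trbc2 were themselves lower in each double knockout library than in each control. Among 57 tested Trav segments 2 rose and 5 fell, beside 1.85% of all genes called higher and 1.07% lower, with a median log2 fold change of -0.91. Of the 57, 10 passed the filter only through the control, where they are high, so the falls and the median are descriptions.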
